A study of Mus musculus with 14 samples.

Results

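Of the 15894 genes listed, 33 belong to glycolysis or to the response to low oxygen, and they were selected by name from these pathways. The first group holds 20 genes: the glucose carrier Slc2a1, the glycolytic enzymes from Hk1 to Ldhb, the lactate carrier Slc16a3 and the pyruvate dehydrogenase kinase Pdk1. The other 13 are the oxygen-sensing genes Hif1a, Epas1, Egln1 and Egln3 and targets of hypoxia-inducible factor (HIF) with other functions. All 33 were found in the table under 1 row each, and all passed the filter on low values in every comparison.

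RNA was sequenced from the epicardium and subepicardium, the outer layer of the heart, dissected from the ventral or the dorsal side of mouse hearts at embryonic day 16.5. All groups carry the genotype label Tbx18Cre, a Cre allele at an epicardial gene, received no treatment, and are called wild type in the paper. Female hearts gave 3 ventral and 3 dorsal libraries (numbers 1 to 3), while male hearts gave 4 ventral (4 to 7) and 3 dorsal (4 to 6) ones, each made from a pool of 2 hearts. Sex and the numbering series cannot be told apart. A further male library, number 7, is dorsal by its title and source name and ventral by its tissue field, so it stayed out of the main tests and its value is given apart as that of the library of unsettled region.

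Glycolysis splits glucose into pyruvate, which is either reduced to lactate by lactate dehydrogenase or enters the mitochondrion through pyruvate dehydrogenase, a complex that the Pdk kinases switch off. In ample oxygen the Egln prolyl hydroxylases mark the HIF alpha subunits Hif1a and Epas1 for destruction, and in low oxygen the subunits persist and bind the core motif RCGTG near their target genes, many of which encode glycolytic enzymes. The fetal heart relies heavily on glycolysis and turns towards fatty acid oxidation after birth. HIF is controlled mainly through the stability of its protein, which mRNA levels do not show.

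The HIF core was looked for in RefSeq promoter windows of GRCm38.p6, each of one fixed length around a start of transcription. The letters searched were ACGTG and GCGTG on both strands, where a single site such as CACGTG can be counted on each strand. RefSeq entries were found for 31 of the 33 genes, and there was none for Epas1 and Ndrg1. At least 1 core stood in 18 of the 20 glycolysis genes (90.0%) and in 11 of the 11 hypoxia genes with an entry, beside 46.7% of all 27025 genes with windows. A gene with several windows counts if any of them holds a core. By window the shares were 78.1% of 32 for the glycolysis genes, 84.6% of 13 for the hypoxia genes and 43.8% of all 32851. The median GC content was 60.2% in windows of the glycolysis genes and 69.3% in those of the hypoxia genes, beside 52.7% in all windows, and it bears on how often such letters occur. The sequences shown belong to 3 genes called higher dorsally in female hearts, 1 called higher ventrally, and Ldha. Each is the part of 1 window of its gene that lies before the start of transcription, cut at the first annotated exon, with cores in capitals.
Pdk1: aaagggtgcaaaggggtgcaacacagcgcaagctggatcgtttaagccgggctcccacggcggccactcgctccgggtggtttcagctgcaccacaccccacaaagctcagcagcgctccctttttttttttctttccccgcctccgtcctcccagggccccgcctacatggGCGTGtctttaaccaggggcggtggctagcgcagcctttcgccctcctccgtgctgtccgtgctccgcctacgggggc
Pfkm: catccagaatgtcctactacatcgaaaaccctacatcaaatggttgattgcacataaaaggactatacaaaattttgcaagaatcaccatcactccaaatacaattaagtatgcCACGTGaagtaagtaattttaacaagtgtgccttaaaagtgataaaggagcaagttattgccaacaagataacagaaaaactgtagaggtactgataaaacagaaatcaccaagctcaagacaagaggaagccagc
Ldhb: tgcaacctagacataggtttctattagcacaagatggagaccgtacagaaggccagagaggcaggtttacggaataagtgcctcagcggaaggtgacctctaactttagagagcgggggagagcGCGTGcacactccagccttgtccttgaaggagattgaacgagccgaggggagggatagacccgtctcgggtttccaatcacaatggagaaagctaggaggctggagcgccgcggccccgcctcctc
Egln1: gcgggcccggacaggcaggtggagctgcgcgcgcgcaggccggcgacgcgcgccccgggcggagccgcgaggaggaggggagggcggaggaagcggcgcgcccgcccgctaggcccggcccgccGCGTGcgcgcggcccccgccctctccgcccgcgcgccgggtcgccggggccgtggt
Ldha: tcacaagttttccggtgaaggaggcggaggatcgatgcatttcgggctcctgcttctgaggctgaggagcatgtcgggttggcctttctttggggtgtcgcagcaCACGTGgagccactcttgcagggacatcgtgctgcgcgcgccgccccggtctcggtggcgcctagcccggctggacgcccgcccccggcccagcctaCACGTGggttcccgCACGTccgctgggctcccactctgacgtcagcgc
They lie at chr2:71872974-71873223 (+ strand), chr15:98092339-98092588 (+), chr6:142507958-142508207 (-), chr8:124949325-124949504 (-) and chr7:46845554-46845803 (+). The stretch of Ldhb holds 1 core, 126 bases before the start, that of Pdk1 holds 1, 78 bases before it, and that of Egln1 holds 1, 126 bases before it. The whole windows, which run past the start, hold 1 core for Ldhb, 2 for Pdk1, 2 for Egln1, 3 for Pfkm and 7 for Ldha. In Pfkm cores begin 136 and 135 bases before the start shown, where the 2 strands of one palindromic site are counted. Pfkm has 4 windows, and the one at chr15:98111810-98112059 holds no core. Pdk1 and Ldha have 2 windows each. Ldha holds 5 cores in the bases shown, at 145, 144, 48, 47 and 34 bases before its start. A match is a stretch of letters and was not tested as a binding site.

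Reads on the listed genes numbered 13.9 to 25.2 M per library, so that 3 reads, taken as the floor of detection, correspond to a value of 0.135 to 0.253. Values are the deposited normalized CPM, reads scaled by a factor for each library, and the values of a library sum to 960113 to 1089817. No member fell to the floor in any library. Markers of the epicardium (10 of 10 genes in the table) summed to 1780 to 2861 in female ventral, 345 to 658 in female dorsal, 2114 to 6198 in male ventral and 1655 to 4401 in male dorsal libraries. Markers of ventricular cardiomyocytes (10 of 10 genes), which the dissected layer can hold, summed to 22529 to 32656, 29565 to 44683, 17324 to 33939 and 35250 to 45659 in the same order. Fibroblast markers (8 of 8) summed to 11843 to 22420 in female ventral and 2988 to 4839 in female dorsal libraries. Female dorsal library 1 stood apart in atrial markers (12512, beside 534 and 2010.5 in the rest of its group), and male ventral library 7 in erythroid markers (77996, the top of a group with a median of 17605). None of the 5 lung epithelium markers is listed. In such bulk samples fewer cells of a type and less RNA per cell cannot be told apart.

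Compared per kilobase of transcript over the 13 libraries of settled region, the genes ran from the aldolase Aldoa at 1725 ± 380.3 CPM per kb (SD, n = 13) to Epas1 at 4.61 ± 1.83. Ldhb, the lactate dehydrogenase subunit typical of heart muscle, came next to the top at 1407 ± 507, and Ldha, the subunit typical of skeletal muscle and a known HIF target, stood at 875 ± 160.02. Phosphofructokinase, the committed step, was far lower in each of its 3 genes, with 81.3 ± 20.6 for Pfkl, 51.2 ± 13.4 for Pfkp and 48.3 ± 17.1 for Pfkm. Hk1 (50.6 ± 16.4) stood above Hk2 (17.9 ± 5.76) among the hexokinases, and Hif1a (36.1 ± 7.15) above Epas1 among the HIF alpha subunits. In this order every gene overlapped its lower neighbour in range over the 13 libraries. These ranges pool regions and sexes, and the order within single libraries was not compared. Many enzymes have near-identical copies, and the level of Gapdh, of whose 60-base windows 81.6% occur elsewhere, or of Mif (70.3%), Eno1 (69.5%) and Pgk1 (67.8%) depends on how reads were shared out.

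The first comparison asked how the ventral and the dorsal side differ in female hearts. There 8 of the 20 glycolysis genes were lower on the ventral than on the dorsal side and none was higher. They were the hexokinase Hk1, all 3 phosphofructokinases, the enolase Eno3, the pyruvate kinase Pkm, Ldhb and Pdk1. Of the 13 hypoxia genes, Egln1 and Ndrg1 were higher ventrally and Hif1a and Ddit4 were higher dorsally. The calls rest on limma with Benjamini-Hochberg adjusted p under 0.05, by which 14.5% of the 14411 genes tested were higher ventrally and 13.3% higher dorsally. The median log2 difference (ventral minus dorsal, on log2 of the value plus 1) was -0.39 over the glycolysis genes, 0.15 over the hypoxia genes and 0.01 over all genes tested. The 3 ventral and 3 dorsal values did not overlap in 8 glycolysis genes, all higher dorsally, and in 5 hypoxia genes, 2 higher ventrally and 3 higher dorsally, beside 23.2% of all genes not overlapping and higher ventrally and 21.6% not overlapping and higher dorsally.

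**Figure D1:**
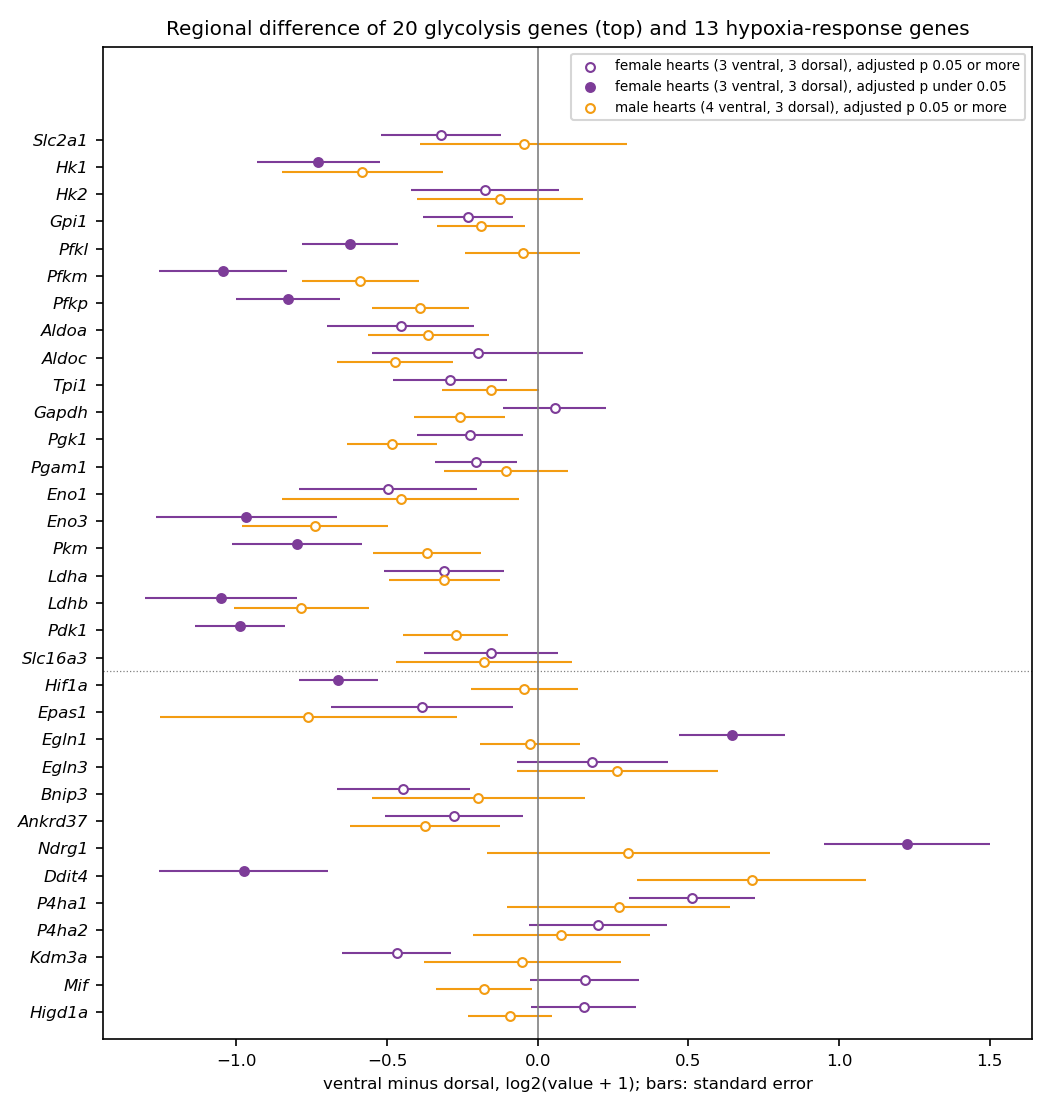
Ventral minus dorsal difference on log2 of the value plus 1 (x axis, bars are the standard error) for each of 33 genes (y axis), in 6 female and 7 male libraries. Filled points, all of them female, mark an adjusted p under 0.05: 10 lie left of 0, higher dorsally, and 2 lie right of it.

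Glucose entry showed no call. Slc2a1, the main fetal glucose carrier, measured 122, 187 and 131 in the female ventral libraries and 191, 213 and 144 in the dorsal ones. The groups overlapped, and the log2 difference was -0.32 ± 0.20 (SE, adjusted p = 0.256, limma). Hk1, the housekeeping hexokinase that traps glucose in the cell, measured 169, 141 and 106 ventrally and 248, 264 and 178 dorsally. All 3 dorsal values lay above the ventral ones, a log2 difference of -0.73 ± 0.20 (adjusted p = 0.0262, limma). This call was lost without female dorsal library 1, the one with high atrial markers, and without 3 other libraries in turn. It was also lost without the variance trend and with all 4 groups in one fit (adjusted p = 0.0700, limma), and adjusted p reached 0.0897 over the alternatives. The inducible hexokinase Hk2 differed by -0.17 ± 0.25, and Gpi1, which turns glucose 6-phosphate into fructose 6-phosphate, by -0.23 ± 0.15, neither past the test.

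The 3 phosphofructokinase genes were all lower ventrally. Pfkm, the muscle isozyme, had 113, 75.01 and 72.2 in ventral and 173, 222 and 142 in dorsal libraries. The dorsal values were all higher, and the log2 difference of -1.04 ± 0.21 (adjusted p = 0.00680, limma) kept its call under each of the 20 alternatives run. The 20 include 3 fits that add the reads of genes sharing sequence with a member. These fits leave the values of Pfkm, Pdk1 and Hif1a unchanged, so for these genes they are no separate check. Pfkp, the platelet isozyme, had 163, 149 and 119.9 ventrally and 221, 313 and 237 dorsally, a log2 difference of -0.83 ± 0.17 (adjusted p = 0.00771, limma), also called under all 20. Of the windows of Pfkp, 16.9% lie in the antisense gene Pitrm1, and strand assignment is not given. Pitrm1 measured 54.2, 75.9 and 65.4 ventrally and 114, 108 and 105 dorsally. Among the 20 alternatives is a fit that adds the Pitrm1 reads to Pfkp. Adding them does not separate the reads of the 2 genes, so the part of Pitrm1 in the Pfkp result was not tested. Pfkl, the liver isozyme, had 237, 181 and 188 ventrally and 276, 357 and 301 dorsally. Its groups did not overlap, and its log2 difference of -0.62 ± 0.16 (adjusted p = 0.0180, limma) lost its call without ventral library 2 or 3 or dorsal library 2 and without the variance trend.

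The middle of the pathway, from aldolase to phosphoglycerate mutase, had no call in female hearts. The log2 differences were -0.45 for Aldoa, -0.20 for Aldoc, -0.29 for the triosephosphate isomerase Tpi1, 0.06 for Gapdh, which flipped sign without dorsal library 1 and after correction for GC content and length, -0.23 for Pgk1, which yields the first ATP, and -0.21 for Pgam1. Adjusted p ran from 0.192 in Aldoa to 0.833 in Gapdh (limma), and of these genes Aldoa was called under 1 alternative, quantile normalization (adjusted p = 0.0228). Only in Pgam1 among these did the 3 ventral values (479, 524 and 512) all lie below the dorsal ones (559, 579.5 and 609.8).

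At the lower end, the muscle enolase Eno3 had 787, 395 and 439.6 in ventral and 946, 1448 and 747 in dorsal libraries. Ventral library 1 lay above dorsal library 3, so the groups overlapped, with a log2 difference of -0.97 ± 0.30 (adjusted p = 0.0386, limma). That call was lost in edgeR, without the filter on low values, without the variance trend, without dorsal library 1 and without 3 other libraries in turn. The ubiquitous enolase Eno1 differed by -0.50 ± 0.30 (adjusted p = 0.234, limma) and was called under 2 of 20 alternatives, without ventral library 1 (adjusted p = 0.0316) and with the replicate block and GC correction together. Pkm, which makes pyruvate, had 1435, 1033 and 1041 ventrally and 1802, 2399.7 and 1881 dorsally, without overlap. Its log2 difference was -0.80 ± 0.21 (adjusted p = 0.0221, limma), and the call was lost without ventral library 2 or 3 or dorsal library 2.

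Of the 2 lactate dehydrogenase subunits 1 was called. Ldhb had 1650.1, 1013 and 1045 in ventral and 2165, 3105 and 2317 in dorsal libraries. Every dorsal value was higher, with a log2 difference of -1.05 ± 0.25 (adjusted p = 0.0138, limma), lost without ventral library 2 or 3. Ldha had 1412, 1236 and 1198 ventrally and 1335, 1919 and 1556 dorsally. Its groups overlapped and it was not called (-0.31 ± 0.20, adjusted p = 0.272, limma). Per kilobase of transcript, Ldhb made up 56.01 ± 4.63% of both subunits in ventral and 68.1 ± 1.06% in dorsal libraries (SD, n = 3 each), with no overlap. The shares of Pfkm among the 3 phosphofructokinases were 25.1 ± 2.25% and 29.9 ± 3.06%, which overlapped, and those of Pfkl 45.6 ± 2.35% and 40.4 ± 2.42%, which did not. In male libraries the Ldhb share was 55.4 ± 5.67% ventrally (n = 4) and 63.3 ± 4.85% dorsally (n = 3), with overlap. These shares were not tested.

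**Figure D2:**
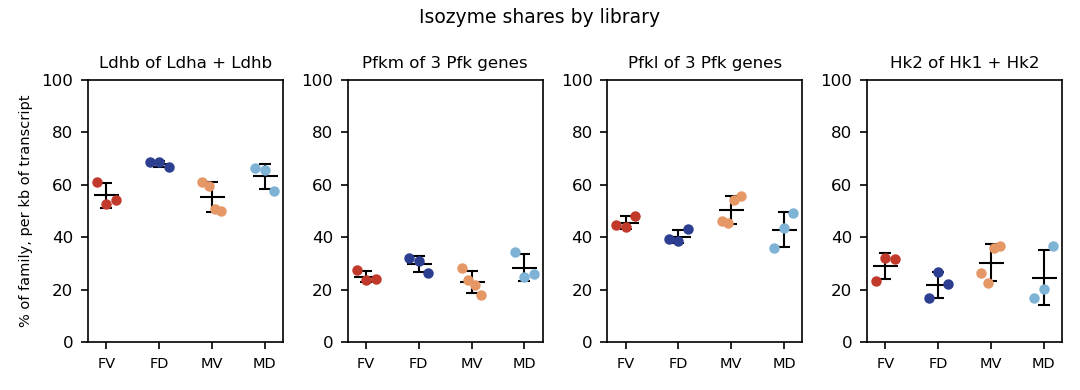
Share of 1 gene in its isozyme family in percent, per kilobase of transcript (y axis), in 3 female ventral (FV), 3 female dorsal (FD), 4 male ventral (MV) and 3 male dorsal (MD) libraries. Points are libraries, lines are the mean with SD, and the Ldhb share is the one that lies higher in all 3 female dorsal libraries (66.9 to 68.7%) than in the ventral ones (52.6 to 61.3%).

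Pdk1, the HIF target that keeps pyruvate out of the mitochondrion, had the smallest adjusted p of all 33 genes. It measured 116, 126 and 126 in ventral and 207, 289 and 246 in dorsal libraries. The ventral values lay close together, and every dorsal value was well above them. The log2 difference was -0.99 ± 0.15 (adjusted p = 0.00200, limma), called under all 20 alternatives. The lactate carrier Slc16a3 was not called (-0.16 ± 0.22, adjusted p = 0.633, limma).

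**Figure D3:**
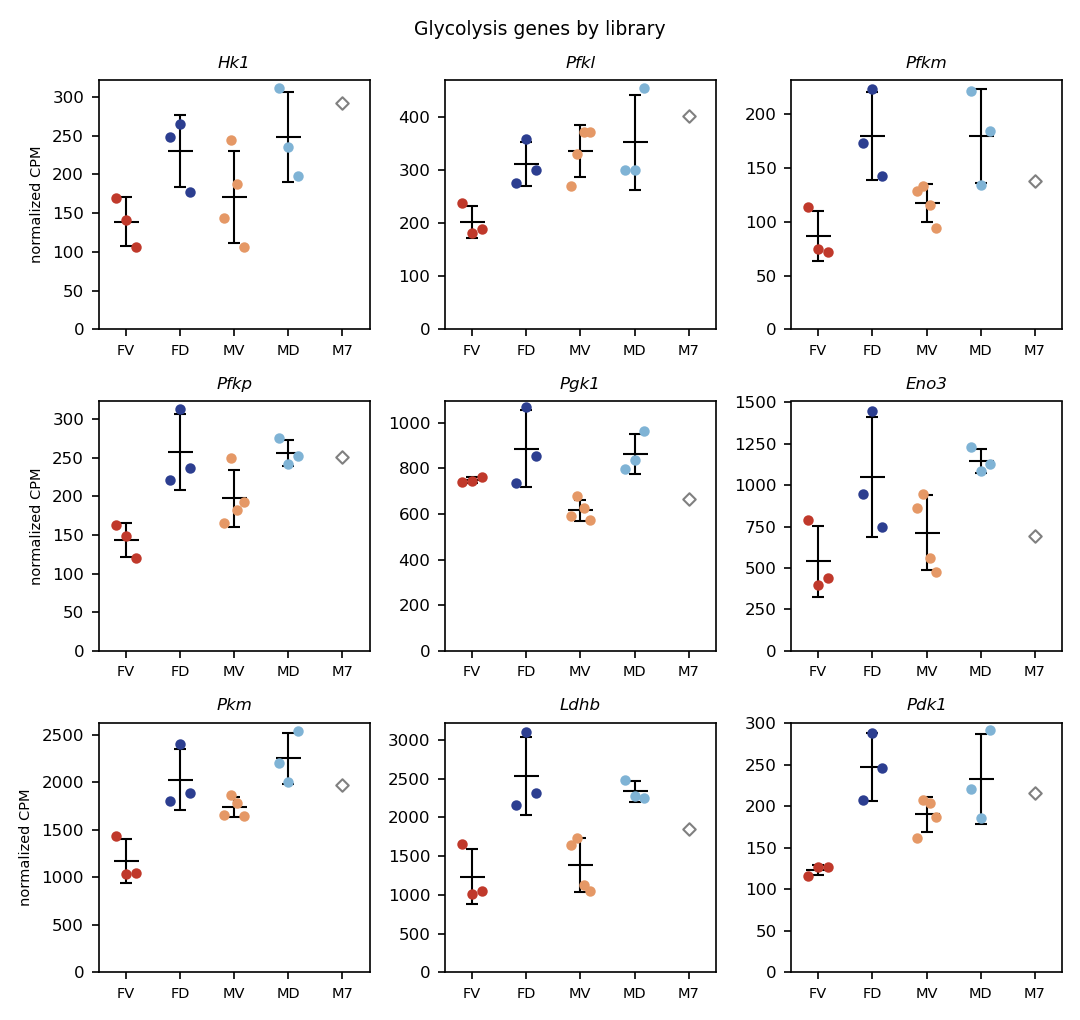
Normalized CPM (y axis, from 0) of 9 glycolysis genes in 3 female ventral (FV), 3 female dorsal (FD), 4 male ventral (MV), 3 male dorsal (MD) libraries and the male library of unsettled region (M7, open diamond). Points are libraries and lines the mean with SD, and in Ldhb all 6 dorsal values exceed all 7 ventral ones.

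Among the oxygen-sensing genes in female hearts, Hif1a was higher dorsally and the prolyl hydroxylase that marks it was higher ventrally. Hif1a measured 122, 139.7 and 125 in ventral and 188, 224 and 201 in dorsal libraries. The groups stood apart, with a log2 difference of -0.66 ± 0.13 (adjusted p = 0.00609, limma), called under all 20 alternatives. Epas1, the second alpha subunit, known from endothelium, had 27.9, 24.6 and 11.6 and 23.3, 30.8 and 25.7, which overlapped (-0.38 ± 0.30, adjusted p = 0.374, limma). Egln1 had 81.2, 115 and 97.8 ventrally and 51.2, 70.5 and 65.4 dorsally. All ventral values were higher, a log2 difference of 0.64 ± 0.18 (adjusted p = 0.0240, limma), but the call was lost without dorsal library 1, without ventral library 2 or 3, without the variance trend, and after correction for GC content and length. Egln3, itself induced by HIF, differed by 0.18 ± 0.25 and was not called.

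Of the HIF targets, Ndrg1 was called higher ventrally and Ddit4 higher dorsally. The 2 calls in each direction among the 13 hypoxia genes lie near the share of all genes (14.5% and 13.3%). Ndrg1, a stress-induced gene, had 75.00, 147 and 95.3 in ventral and 29.7, 51.5 and 51.8 in dorsal libraries. The lowest ventral value exceeded the highest dorsal one, and the log2 difference of 1.22 ± 0.28 (adjusted p = 0.0105, limma), the largest upward one among the 33 genes, was called under 19 of 20 alternatives and lost with all 4 groups in one fit (adjusted p = 0.0711, limma). Ddit4, an inhibitor of mTORC1, had 9.68, 14.9 and 13.9 ventrally and 17.5, 34.1 and 28.7 dorsally. The dorsal values were all higher (-0.98 ± 0.28, adjusted p = 0.0286, limma), and leaving out any of 5 of the 6 libraries, dorsal library 1 being the exception, ended the call, as did the fit of all 4 groups (adjusted p = 0.0795, limma). The dissection stress markers, 9 of 10 in the table, summed to 179 to 226 in female ventral and 293 to 355 in female dorsal libraries, and their part in this result was not tested.

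Of the remaining targets in female hearts none was called. The collagen prolyl hydroxylases differed by 0.51 ± 0.21 for P4ha1 (adjusted p = 0.0945, limma) and 0.20 ± 0.23 for P4ha2. The histone demethylase Kdm3a had 3 ventral values (36.5, 48.8 and 45.5) below its dorsal ones (51.7, 73.6 and 57.5) but a log2 difference of -0.47 ± 0.18 that missed the threshold (adjusted p = 0.0807, limma). The mitophagy receptor Bnip3 differed by -0.45, Ankrd37 by -0.28, the cytokine Mif by 0.16 and the mitochondrial Higd1a by 0.15, and the sign of Mif flipped without dorsal library 1 and after correction for GC content and length.

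**Figure D4:**
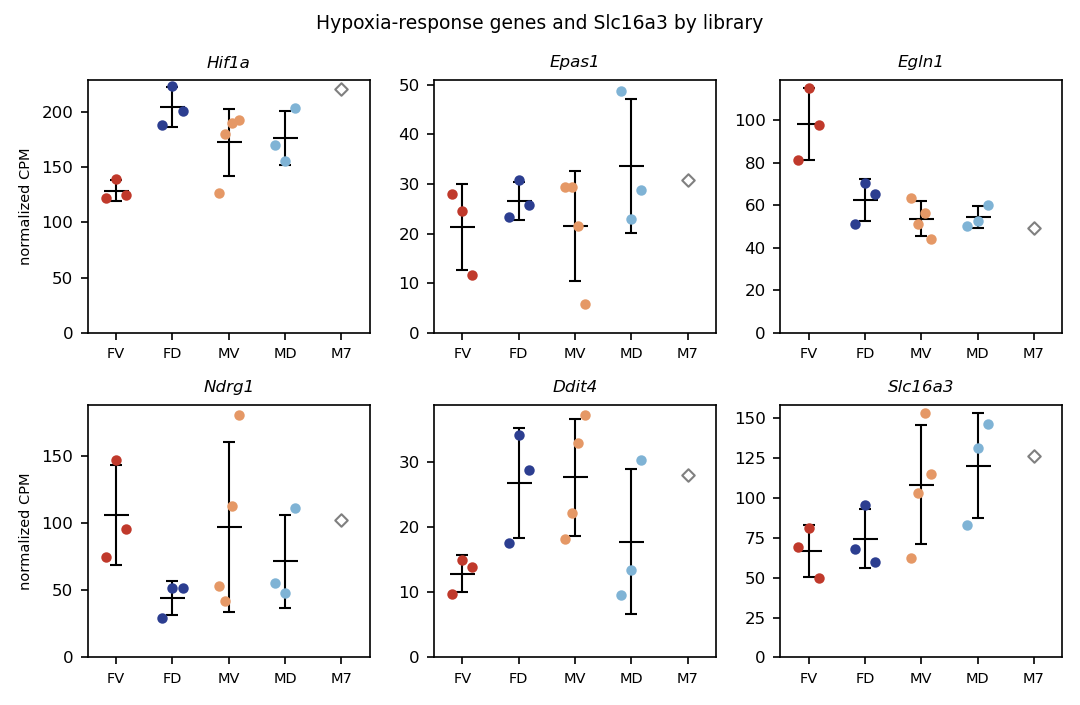
Normalized CPM (y axis, from 0) of 5 hypoxia genes and the lactate carrier Slc16a3, laid out with the same group letters (FV, FD, MV, MD, M7). Points are libraries and lines the mean with SD, and Hif1a, Egln1, Ndrg1 and Ddit4 show no overlap between the female ventral and dorsal points, whereas the male points overlap in all 6 genes.

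Marker genes of several cell types also differed between the female ventral and dorsal libraries. Of 10 ventricular cardiomyocyte markers 2 were called higher ventrally and none dorsally, with a median log2 difference of -0.29, while 9 of 10 epicardial, 6 of 8 fibroblast and 5 of 6 macrophage markers were called higher ventrally. Of 7 identifiers of 6 lymphatic endothelium markers 5 were called higher ventrally (sums of 400.4 to 2052 ventrally and 148 to 295 dorsally), and of 6 smooth muscle markers 1 was called higher ventrally and 3 dorsally. Their part in the differences of the 33 genes was not tested.

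In male hearts none of the 33 genes was called by limma, nor was any other gene (0% of 14917). At an unadjusted p under 0.05, 6 of the 20 glycolysis genes and none of the 13 hypoxia genes passed, all 6 lower ventrally, beside 14.0% of all genes in either direction. No member was called by edgeR or under any other alternative either. The median log2 difference was -0.34 over the glycolysis genes, -0.04 over the hypoxia genes and 0.03 over all genes.

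Ldhb had 1645, 1729, 1132 and 1045 in male ventral and 2488, 2273 and 2248 in male dorsal libraries, and 1844 in the library of unsettled region. The groups did not overlap, and the log2 difference was -0.78 ± 0.22 (adjusted p = 0.285, limma). Eno3 had 863, 949, 563 and 479 ventrally and 1228, 1088 and 1125 dorsally, also apart (-0.74 ± 0.24). Pgk1 had 589, 678, 624 and 573 and 795, 834 and 961, apart as well (-0.48 ± 0.15). None of these differences was past the test.

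Pfkm had 128, 133, 115 and 93.7 in male ventral and 221, 134 and 184 in male dorsal libraries, so that the groups met without overlapping (-0.59 ± 0.19). Pkm had 1655, 1861, 1786 and 1649 and 2199.5, 2006 and 2542, without overlap. Ldha had 1428, 1588, 1475 and 1412 and 1705, 1603 and 2233, and Aldoa 2359 to 2570 and 2683 to 3775.5, both without overlap. In all, 7 glycolysis genes and no hypoxia gene stood apart in males, the 7 higher dorsally. Among all 14917 genes tested, 1166 stood apart and higher dorsally and 922 apart and higher ventrally. For Hk1 the values were 143, 244, 187 and 106 and 312, 236 and 198, for Pfkp 165, 250.03, 182 and 193 and 275, 242 and 252, and for Pdk1 161, 208, 204 and 188 and 221, 186 and 292. These last 3 overlapped, with log2 differences of -0.58, -0.39 and -0.27.

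The hypoxia genes called in females overlapped between male regions. Hif1a measured 127, 180.3, 190.04 and 193 ventrally and 170.2, 156 and 204 dorsally (-0.04 ± 0.18). Egln1 measured 63.2, 51.00, 56.2 and 43.9 and 50.2, 52.4 and 60.1 (-0.02 ± 0.17), all 7 below the female ventral values. Ndrg1 measured 53.5, 42.3, 113 and 181 and 55.4, 48.2 and 112, where both libraries numbered 6 and ventral library 7 were high (0.30 ± 0.47). Ddit4 measured 18.1, 22.1, 32.9 and 37.2 and 9.50, 13.5 and 30.3, a log2 difference of 0.71 ± 0.38 against -0.98 in females. Slc2a1 had 113, 197, 331 and 275 and 185, 179 and 317, and Epas1 29.3, 29.4, 21.6 and 5.85 and 48.8, 23.03 and 28.8, its lowest value being in ventral library 7.

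Over both sexes, with sex as a covariate, 8 glycolysis genes were lower ventrally and none higher, beside 9.80% of 15772 genes higher ventrally and 9.06% higher dorsally (1545 and 1429 genes, which became 1012 and 1736 after correction for GC content and length), and no hypoxia gene was called. Ldhb showed the largest difference, -0.91 ± 0.17 (adjusted p = 0.00701, limma), and its 6 dorsal values all exceeded its 7 ventral ones. Pfkm, with the next smallest adjusted p, differed by -0.80 ± 0.16 (adjusted p = 0.00793, limma), again without overlap. Among all 15772 genes, 342 stood apart and higher dorsally and 192 apart and higher ventrally. Eno3 (-0.85), Hk1 (-0.65), Pdk1 (-0.61), Pfkp (-0.59), Pkm (-0.57) and Pgk1 (-0.36) were called too, with adjusted p from 0.0111 to 0.0357 (limma). Ldhb, Pfkm, Eno3, Pfkp and Pdk1 kept their calls under each of the 28 alternatives. Pkm was called under 27 of them, Hk1 under 21 and Pgk1 under 11. Hk1 lost its call without female ventral library 2 or 3, female dorsal library 1 or 2 or male dorsal library 4, and Pgk1 without any of 11 libraries in turn. Pgk1 also lost its call with the replicate block (adjusted p = 0.0865, limma), and Bnip3 gained one there (-0.44, adjusted p = 0.0480). The female libraries enter both this fit and the female one, so the calls are not independent. Of the marker lists, 2 of 10 cardiomyocyte genes were called higher dorsally here, and 8 of 10 epicardial, 5 of 8 fibroblast, 5 of 6 macrophage and 3 of 7 lymphatic ones higher ventrally. Of 6 smooth muscle genes 3 were higher dorsally, and their part in these differences was not tested.

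The regional change was then compared between the sexes, as the male minus the female difference, by which 2.73% of 15772 genes were called in either direction. Neither limma nor edgeR called any of the 33 genes. An unadjusted p under 0.05 (limma) was reached by 5 of them, beside 2428 of all 15772 genes. Ddit4 came closest, with a difference of 1.68 ± 0.52 (adjusted p = 0.114, limma). With the replicate block Ddit4 was called (1.53, adjusted p = 0.0120), and so was Ndrg1 in the other direction (-1.30, adjusted p = 0.00365, against -0.92 and 0.525 without the block, limma). The block leaves male ventral library 7, which has no partner, without weight. Leaving out that library alone gave Ndrg1 the same -1.30 and no call. Without male dorsal library 6 Ddit4 was called as well (2.13, adjusted p = 0.0189). Pdk1 (0.72 ± 0.24) passed only without male dorsal library 6, Hif1a (0.62 ± 0.23) only without male ventral library 4. The female calls of the glycolysis genes are thus not shown to differ from the male values.

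Between the sexes, with region as a covariate, 1 of the 33 genes was called with the higher level in males and 1 with the higher level in females, beside 4.40% and 6.54% of 15772 genes. Slc16a3, the lactate exporter, had 69.5, 81.4 and 49.6 in female ventral and 67.8, 95.6 and 60.2 in female dorsal libraries, and 62.3, 103, 153 and 115 in male ventral and 83.2, 131 and 147 in male dorsal ones. Male and female values overlapped, and the log2 difference (male minus female) of 0.66 ± 0.20 (adjusted p = 0.0466, limma) was lost under 12 of the 27 alternatives, among them the omission of any of 9 libraries in turn. Egln1 was lower in males (-0.55 ± 0.15, adjusted p = 0.0268, limma), with overlap, and lost its call without female ventral library 2 or 3 or male ventral library 6. Averaging the libraries of one number, which is the replicate block of this comparison, ended both calls (adjusted p = 0.158 for Slc16a3 and 0.0632 for Egln1). Epicardial markers (6 of 10) and dissection stress markers (5 of 9) were called higher in males too, and their part in these differences was not tested.

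Of the other glycolysis and pyruvate genes, 33 in the table and 32 tested in females, 15 were higher dorsally and none higher ventrally in female hearts, where the median log2 difference was -0.67. Among all genes tested the shares were 13.3% higher dorsally and 14.5% higher ventrally. Gbe1, the glycogen branching enzyme, had 32.4, 24.1 and 19.2 in female ventral and 118, 88.6 and 74.2 in female dorsal libraries, far apart (-1.85 ± 0.23, adjusted p = 0.000814, limma). Dlat, a subunit of the pyruvate dehydrogenase complex, had 156, 87.2 and 100.3 and 300.3, 436 and 265 (-1.55 ± 0.24, adjusted p = 0.00238). Pdk4, a kinase of that complex, had 15.4, 12.2 and 16.5 and 44.4, 39.9 and 37.6 (-1.41 ± 0.19, adjusted p = 0.00118). Over both sexes 16 of the 33 were lower ventrally and 1 was higher, beside 9.06% and 9.80% of all genes. Dlat (-1.09), the complex subunit Pdhb (-1.03) and Pdk4 (-0.98) were among those without overlap. In the comparison of the sexes 2 of the 33 were higher in males, near the 4.40% of all genes. They were Pfkfb3 (0.78), which makes the activator of phosphofructokinase, and the kinase Pdk2 (0.62), both with overlap and both named after their values were seen.

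Of the 43 other hypoxia genes, 5 were higher ventrally and 5 higher dorsally in female hearts, beside the 14.5% and 13.3% of all genes, with a median log2 difference of 0.05. The haem oxygenase Hmox1 had 27.2, 34.4 and 188 ventrally and 8.11, 9.12 and 17.3 dorsally (2.27 ± 0.61, adjusted p = 0.0223, limma), with ventral library 3 far above the rest, and its call was lost without dorsal library 1 or 2. Arnt2, a partner of the HIF alpha subunits known from neurons, had 9.63, 9.001 and 14.2 and 2.93, 0.789 and 2.32 (2.04 ± 0.37, adjusted p = 0.00410). Car9, the carbonic anhydrase at the cell surface, had 10.9, 16.1 and 17.9 and 3.12, 1.23 and 8.06 (1.85 ± 0.47, adjusted p = 0.0176), a call lost in edgeR and without ventral library 2 or 3. Over both sexes 4 of the 43 were higher ventrally and 5 higher dorsally, beside the 9.80% and 9.06% of all genes, and without overlap stood Arnt2 (1.71), the collagen-crosslinking Loxl2 (1.05) and, higher dorsally, the glycogen regulator Ppp1r3b (-0.97). Between the sexes 5 were higher and 1 lower in males, beside 4.40% and 6.54% of all genes. Of these, Anxa2 (0.48) and Cited2 (-0.80), a competitor of HIF for its coactivator, did not overlap. Among all 15772 genes, 203 stood apart and higher in males and 413 apart and higher in females.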

How the data were processed

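RNA was measured in 14 libraries of poly(A) RNA from dissected epicardium and subepicardium, sequenced as single reads of 60 bases. According to the methods and the submitters' processing notes, the authors trimmed adapters (cutadapt), quantified genes on GRCm38 with RSEM (1.3.1 in the notes), normalized with limma and kept genes above a low CPM. The deposited signal is their normalized CPM. Strand assignment is not given in the sources used here. Of the deposited values, 100.0% came out as whole read counts (tolerance 0.02 reads), once an offset per value that limma adds before scaling is taken off, which gave the depth of each library and the precision behind low values. Coordinates and lengths come from GENCODE M21, which held 99.9% of the identifiers, and promoter sequences from RefSeq (GRCm38.p6).

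Tests used limma 3.58.1 in R 4.3.3 (eBayes with trend) on log2(value + 1) for genes reaching 1 in at least 3 libraries of the fit, with Benjamini-Hochberg adjustment over all genes tested and a threshold of 0.05. The pseudocount understates changes of low genes. Libraries within a group are separate pools, so in the comparisons of regions p-values measure the spread between pools. The main tests treat libraries of one number as unpaired. In the comparison of the sexes the ventral and dorsal libraries of a number therefore count as separate units, which the replicate block averages. Groups follow the labels. Regions were compared within each sex and over all hearts, and the sexes over both regions and in their regional change. Alternatives were another pseudocount (0.1), filter, scaling or variance model, edgeR 4.0.16 on the recovered reads, removal of trends on GC content and length, each library left out, the replicate block, and the unsettled library placed in either region. On the recovered reads edgeR called 1797 genes higher ventrally and 1853 higher dorsally in females, 0 in males, and 1236 and 1244 over both sexes. The fits were also run on simulated libraries, drawn independently and with the same dispersion for every gene. Real libraries need not follow that setting, and no result here rests on that run. The replicate block takes replicate numbers to pair libraries. Over 15772 genes, deviations of the ventral and dorsal libraries of a number correlated by 0.187, 0.169 and 0.27 in females. In males they correlated by 0.427, 0.175 and 0.351. Libraries of different numbers were not compared in this way, so these correlations do not establish the pairing.

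Members and gene lists were chosen with earlier results of these data known. Named genes are all members and, of the other lists, up to 3 per direction among called genes of both lists together whose groups did not overlap, and a few outside this rule are said to be. After the data had been seen, reads of listed genes sharing windows with a member, here called copies, were added to it. This was done in 3 ways tried one after another: copies sharing at least 10% of the member's windows, copies with at least 50% of their own windows shared, and copies on another chromosome with at least 25% shared. Under the 10% rule such a gene need not be near-identical to the member. All 3 are reported. A fit of all 4 groups together was likewise added after the data had been seen. The numbers of alternatives given with a gene include all these later fits. For a gene without such a copy, adding copies leaves its values unchanged, so those fits are no separate check of its call. In males and over both sexes the replicate block gives male ventral library 7, which has no partner, no weight.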

Additional observations from a re-analysis of the deposited data

Results flagged for a closer look

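Among the 33 genes, 33 groups of 4 male ventral libraries were examined for a library far from the others, and 2 stood out. Chance alone gives such a finding in about 1 in 20 groups. Aldoa measured 2570 in male ventral library 5, against 2359 to 2382 in the other 3. Higd1a measured 238 in male ventral library 6, against 289.7 to 297 in the other 3.

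The regional change of Gbe1 differed between the sexes. Its male minus female difference was 1.35 on the log2 scale (adjusted p = 0.0473, limma), with -1.85 in females and -0.50 in males, and it was called under 14 of 28 alternatives. The call was lost with the smaller pseudocount, in edgeR, and without female ventral library 2 or 3, female dorsal library 1 or 2, male ventral library 5 or 7 or any male dorsal library. In this gene all 3 female dorsal values exceeded the ventral ones, while the male groups overlapped in range (39.05, 69.4, 38.4 and 47.6 ventrally and 79.7, 65.96 and 58.1 dorsally).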

How the results depend on the processing

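With 1 library left out at a time, in female hearts the members called ran from 1 to 3 higher ventrally and 4 to 10 higher dorsally, of 2158 to 3845 genes in all, lowest without ventral library 2. In male hearts no member was called, and 0 to 12 genes in all. Over both sexes 0 to 1 members were higher ventrally and 6 to 8 dorsally (1429 to 3646 genes). For the difference between the sexes, 0 to 2 members had a change more ventral in males and none in females (260 to 447 genes), and in the comparison of the sexes 0 to 3 were higher in males and 0 to 1 in females (1303 to 1859 genes). Without the variance trend, or with the GC and length trend removed, 1 member was called higher ventrally in females. Quantile normalization left 5 members higher dorsally over both sexes. In the comparison of the sexes, members higher in males numbered 2 with the filter on a mean of at least 10 and with the unsettled library in either region, and 0 without the variance trend or with the GC and length trend removed, and without the variance trend 0 were higher in females. In males 1 gene was called without the variance trend. All 4 groups in one fit left 1 member higher ventrally in females and called 32 genes in males, none a member. The replicate block changed no female call of a member and gave 76 genes in males (32 with the GC and length trend removed), none a member, and it gives male ventral library 7 no weight. For the difference between the sexes it gave 1 member in each direction, also with that trend removed, of 804 and 747 genes. In the comparison of the sexes it left 0 members in either direction, of 944 genes.

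Signs turned only for differences that had not been called as reported. With the reads of a lincRNA on chromosome 14 that shares windows with it added under the 10% rule, Bnip3 stood at 1.47 in females (adjusted p = 0.00522, limma) and 1.01 over both sexes (adjusted p = 0.0261), which made 1 member higher ventrally there. Of the lincRNA's own windows only 0.68% are shared. It measured 992, 1881 and 1785 in female ventral and 154, 226 and 416 in female dorsal libraries. Bnip3 itself measured 240, 264 and 363 ventrally and 301, 516 and 376 dorsally, so the ventral sums were mostly the lincRNA's reads. Under all 3 rules for copies Eno1 was called lower ventrally over both sexes. With the GC and length trend removed, with or without the block, Gapdh stood at -0.15 and Mif at -0.33 in females. Quantile normalization gave 0.11 for Pfkl, 0.0611 for Hif1a and 0.0350 for Egln1 in males, and 0.0108 for Gapdh and 0.10 for Mif over both sexes. The unsettled library taken as ventral gave 0.00317 for Pfkl and 0.0305 for Hif1a in males and -0.0327 for Higd1a over both sexes, and taken as dorsal 0.00713 for Egln1 in males. In males the block gave 0.0647 for Egln1 and -0.0730 for Ndrg1 (-0.12 with the trend removed). Leaving out 1 library gave in females -0.33 to 0.13 for Hk2, -0.61 to 0.17 for Aldoc, -0.0867 to 0.19 for Gapdh, -0.31 to 0.0420 for Slc16a3, -0.0358 to 0.42 for Egln3, -0.0112 to 0.41 for P4ha2 and -0.0353 to 0.27 for Mif. It gave in males -0.15 to 0.15 for Pfkl, -0.13 to 0.0948 for Hif1a, -0.11 to 0.0647 for Egln1 and -0.0730 to 0.67 for Ndrg1, and over both sexes -0.34 to 0.0950 for Ddit4, -0.12 to 0.0688 for Mif and -0.0538 to 0.0805 for Higd1a. For all of these changes the cause was not tested. With 3 or 4 pools a group, small differences were not detectable.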

Other observations

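Near-identical copies of the enolase and lactate dehydrogenase genes, outside the 33, took very unequal reads between libraries. Eno1b and the pseudogene Gm4735, which share most of their sequence with Eno1, measured 60.1 and 1.26 in male ventral library 5 and 77.9 and 0.718 in male dorsal library 5, against 270.5 to 854 for Eno1b and 163 to 415 for Gm4735 in the other 12 libraries. Eno1 itself was highest in those 2 libraries, with 2445 and 2701. With the reads of both copies added, Eno1 ran from 1323 to 2779 over all 14 libraries. The Ldhb pseudogene Gm5514 measured 0.0598 to 0.5 in the male libraries numbered 4 to 6 and 69.5 to 239 in the 6 female libraries and the 2 numbered 7. In the library of unsettled region, Hif1a stood at 221, Slc2a1 at 248, Ldha at 1440.0, Hk1 at 292, Pdk1 at 216 and Egln1 at 49.4.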
